A study of Homo sapiens with 6 samples.

Results

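The genes described here are NFE2L2, which encodes the transcription factor NRF2, and 9 genes of antioxidant defence and carbonyl reduction that NRF2 is known to activate: AKR1B10, AKR1C1, AKR1C2, AKR1C3, NQO1, GCLM, HMOX1, TXNRD1 and SRXN1. They were taken by symbol from a count table of 26485 genes, and all 10 were found and passed the filter on low counts. RNA was sequenced from PC-9, a human lung adenocarcinoma cell line that grows on mutant EGFR. In one population (shIFITM3) a stably expressed short hairpin RNA targeted IFITM3, whose product sits in membranes, is induced by interferon and hinders virus entry. The other population (shControl) stably expressed a control shRNA, which the column names of the table call ShEV. Each group held 3 samples, labelled biological replicates, grown in the same serum-containing medium with no drug named. How many hairpins were used, and whether the populations were clones or came from separate infections, is not stated in the labels, so the p-values measure the spread between these samples.

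NRF2 is held low in resting cells by KEAP1, an adaptor that brings it to the CUL3-RBX1 ubiquitin ligase for destruction. Oxidants and electrophiles modify KEAP1, and NRF2 then accumulates, pairs with a small MAF protein and binds antioxidant response elements (AREs) in its target genes. Much of this control acts on the NRF2 protein, which was not measured here. In lung cancers that lose KEAP1 or stabilise NRF2, the aldo-keto reductases AKR1B10 and AKR1C1 to AKR1C3, which reduce aldehydes, ketones, steroids and prostaglandins with NADPH, are among the most prominent target genes.

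The coding sequences of the AKR1C genes on chromosome 10 are shown first, because their likeness limits how reads can be told apart. The first 150 coding bases of each are given 5′ to 3′ from GENCODE release 29 transcripts, with capitals at the 24 positions where the 3 genes do not all have the same base.
AKR1C1: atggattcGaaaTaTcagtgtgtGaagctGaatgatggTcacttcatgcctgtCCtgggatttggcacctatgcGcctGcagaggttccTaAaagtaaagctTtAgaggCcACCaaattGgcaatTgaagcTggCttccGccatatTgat
AKR1C2: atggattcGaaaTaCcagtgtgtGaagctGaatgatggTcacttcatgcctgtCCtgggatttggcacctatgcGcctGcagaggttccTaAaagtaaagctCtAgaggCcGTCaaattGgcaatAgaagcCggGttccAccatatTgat
AKR1C3: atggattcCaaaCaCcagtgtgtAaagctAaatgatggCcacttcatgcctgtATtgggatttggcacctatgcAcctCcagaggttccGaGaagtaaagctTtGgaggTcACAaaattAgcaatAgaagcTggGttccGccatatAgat
Over the whole coding sequence of 969 bases, AKR1C1 and AKR1C2 differed at 19 positions (98.0% identity), and the longest stretch without a difference was 186 bases. AKR1C1 and AKR1C3 differed at 83 positions (91.4% identity). Of all 50-base windows of the coding sequence, 53.4% in AKR1C1, 57.1% in AKR1C2 and 20.1% in AKR1C3 also occurred in another of the 3 genes. Over the whole transcripts, untranslated ends included, 28.7% of such windows in AKR1C1, 52.2% in AKR1C2 and 12.1% in AKR1C3 occurred in another gene. Windows of 100 bases were shared less often. In AKR1C1, AKR1C2 and AKR1C3 these shares were 20.3, 26.4 and 9.8% of the coding sequence, and 17.4, 32.9 and 4.98% of the transcript. How reads that fit several genes were counted is not stated in the labels, so the separate values of AKR1C1 and AKR1C2 are uncertain, and a summed value is given beside them.

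The bases before the RefSeq start sites were compared as well. AKR1C1 (plus strand) and AKR1C2 (minus strand) lie side by side on opposite strands, and 246 bases before one listed start of each could be aligned with 1 mismatch (99.6% identity). Before the listed starts of AKR1C3, which also fell, 53.7% and 58.1% of bases matched AKR1C1 when aligned without gaps. The part of this likeness in the changes was not tested. The AKR1C1 and AKR1C2 stretch is shown because both genes fell, by unequal amounts. The portion outside every annotated exon is 84 bases long and the same in both (AKR1C1 at chr10:4963169-4963252, AKR1C2 at chr10:5004024-5004107, GRCh38.p14).
AKR1C1: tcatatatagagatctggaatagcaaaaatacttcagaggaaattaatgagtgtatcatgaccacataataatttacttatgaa
AKR1C2: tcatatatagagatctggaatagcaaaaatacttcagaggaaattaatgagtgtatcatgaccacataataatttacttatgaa
The 250 bases before each start were searched on both strands for the ARE core TGACNNNGC, which 10.9% of 35116 promoter windows in RefSeq hold. Bases farther from the starts were not searched, so a gene without a match may hold a core there. Of the 8 members with an entry (NFE2L2, AKR1C1, AKR1C2, AKR1C3, NQO1, GCLM, TXNRD1 and SRXN1), GCLM and TXNRD1 held a match. Each match is printed on its own strand with 10 bases on either side and the core in capitals, because the 2 genes moved in opposite directions in the counts. They are GCLM at chr1:93909446-93909474 (plus strand, opposite to the gene, 26 to 34 bases before the start), the first TXNRD1 start at chr12:104215670-104215698 (plus strand, 91 to 99 bases before), and a second TXNRD1 start at chr12:104286920-104286948 (minus strand, 94 to 102 bases before).
GCLM: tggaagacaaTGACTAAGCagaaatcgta
TXNRD1, first start: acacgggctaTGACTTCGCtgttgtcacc
TXNRD1, second start: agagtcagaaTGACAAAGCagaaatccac
From the first base of the core to the end of the printed window, the GCLM match and that of the second TXNRD1 start had the same base at 15 of 19 positions. The first TXNRD1 start had the same base as GCLM at 10 of 19, and as the second TXNRD1 start at 10 of 19. The fixed letters of the core are the same in every match by construction. The AP-1 site TGANTCA, whose letters can overlap the core, occurred in 0 of the 8, against 6.57% of all windows. In both searches the members were counted by gene, some with more than 1 start, while the shares over RefSeq count windows. A match is a description of letters and not a measured binding site.

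Total counts ranged from 21342028 to 27493145 in 5 libraries and reached 77228760 in shControl replicate 2. IFITM3 was at 57.0, 60.5 and 62.8 CPM, which are counts scaled to library size, in shControl and at 10.4, 12.9 and 9.75 CPM in the shIFITM3 samples, which goes with the labels. The epithelial markers EPCAM, CDH1, KRT7, KRT8, KRT18 and KRT19 summed to 9310 to 9431 CPM in shControl and 7846 to 8058 CPM in shIFITM3. Among them KRT8, KRT18 and CDH1 were lower, EPCAM was higher (0.09 on the log2 scale, edgeR adjusted p = 0.0225), and KRT7 and KRT19 did not pass. The 5 markers of alveolar cells (NKX2-1, NAPSA, SFTPB, SFTPC, SFTPA1) were each under 1 CPM in every sample. Markers of other cell types were low. The 6 leukocyte markers summed to 1.17 to 1.79 CPM in shControl and 5.04 to 5.36 CPM in shIFITM3, and 5 of them stayed under 1 CPM in every sample, CSF1R being the exception, with 4.68, 4.09 and 4.44 CPM in shIFITM3. The 7 fibroblast markers summed to 9.18 to 10.5 and 9.996 to 13.8 CPM, nearly all of it COL1A1, with DCN and LUM at 0 counts in all samples. The 4 endothelial markers summed to 3.43 to 4.29 and 5.26 to 6.28 CPM, within which KDR and CDH5 were higher and PECAM1 lower in shIFITM3. The part of these marker differences in the results was not tested.

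All 10 members differed between the groups. By edgeR's quasi-likelihood test (adjusted p under 0.05 after Benjamini-Hochberg), 7 were lower and 3 higher in shIFITM3, and for each of the 10 the highest sample of one group lay below the lowest of the other. Across the 14018 genes tested, 56.1% passed the same threshold, 28.4% lower and 27.7% higher, and 60.9% had groups that did not overlap in this way. The members and the gene lists below were chosen with earlier results of these data known. Their counts beside the shares over all tested genes are therefore a description and not independent evidence. With a log2 fold change of at least 0.5 in size as well, 2 of 10 members were lower (AKR1B10 and AKR1C2) and 1 was higher (HMOX1), where 6.84% of all tested genes were lower and 12.9% higher. The members' median log2 fold change was -0.25, against 0.00 over all tested genes. The changes were unequal in size, from a 3.48-fold lower level of AKR1B10 to differences of 5.93% in NFE2L2 and 5.79% in SRXN1. Values are CPM on scaled library sizes, log2 fold changes are shIFITM3 against shControl, and "fell" and "rose" are used only of genes that passed.

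**Figure D1:**
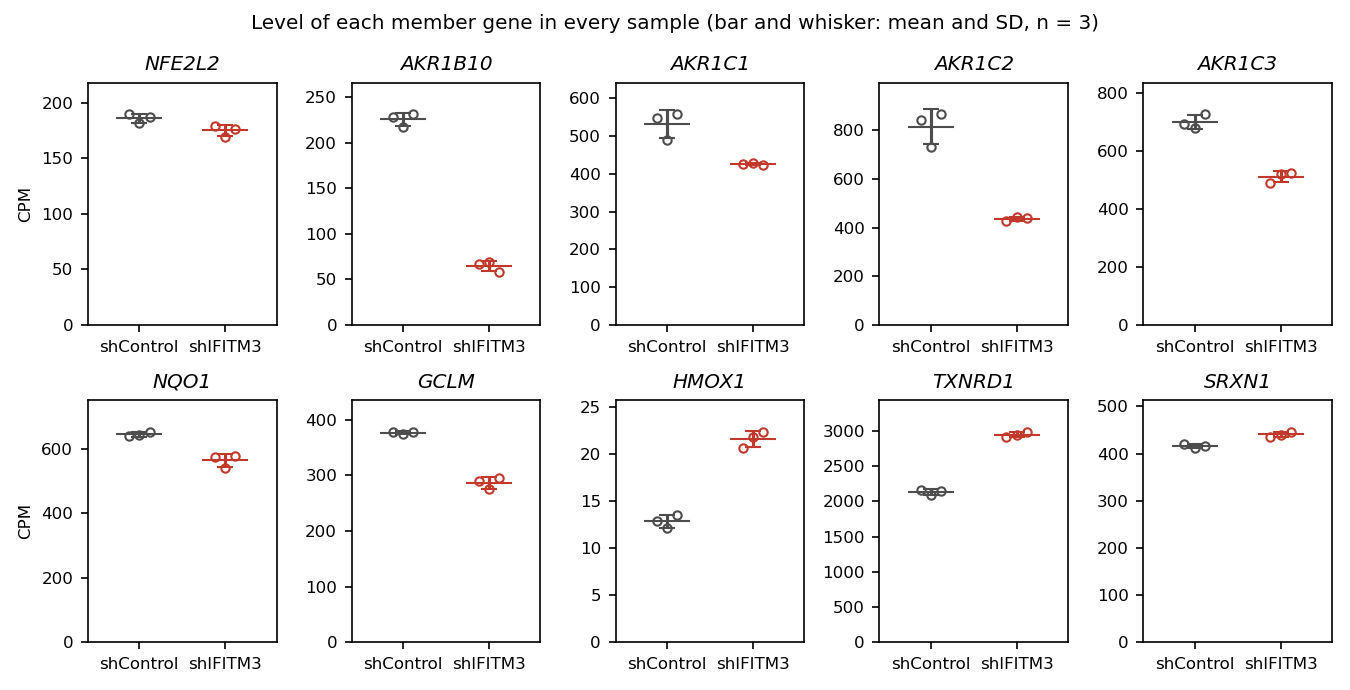
CPM of each of the 10 member genes in the 3 shControl (grey) and 3 shIFITM3 (red) samples, with open circles for samples and bars with whiskers for the mean and SD. AKR1B10, the AKR1C genes, NQO1 and GCLM sit lower in every shIFITM3 sample, HMOX1 and TXNRD1 sit higher, and NFE2L2 and SRXN1 differ by little.

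NFE2L2 itself (chromosome 2, 177230303 to 177264727, minus strand) differed little between the groups. It was at 190, 182 and 187 CPM in shControl replicates 1, 2 and 3, and at 179, 169 and 177 CPM in shIFITM3 replicates 1, 2 and 3. The highest knockdown sample lay just below the lowest control sample. The log2 fold change was -0.09 (SE 0.0364, edgeR adjusted p = 0.0468), which is 5.93% lower. The call ended in 10 of 16 other settings, among them RLE scaling (edgeR adjusted p = 0.0615), DESeq2 (adjusted p = 0.0668) and the fits without shControl replicate 1 or 3 or shIFITM3 replicate 2 or 3 (edgeR adjusted p = 0.123, 0.107, 0.159 and 0.0693). NFE2L2 also overlaps an exon of AGPS on the opposite strand, and the strand setting of the counting is not stated in the labels.

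AKR1B10 (chromosome 7, 134527567 to 134541412, plus strand), which reduces retinal and other aldehydes, had the largest difference of the members. Its level was 228, 218 and 232 CPM in the shControl samples, from 4845, 16775 and 6345 counts. The shIFITM3 samples were at 67.3, 69.1 and 58.3 CPM, from 1481, 1589 and 1394 counts. All knockdown samples were far below all controls. The group means of 226 ± 7.12 and 64.9 ± 5.76 CPM (SD, n = 3 each) differed by -1.80 on the log2 scale (SE 0.0497, edgeR adjusted p = 3.27e-19). Ordered from the lowest fold change, AKR1B10 was number 53 of 14018 tested genes. In bulk RNA, less AKR1B10 RNA per cell and fewer cells that express it cannot be told apart. Of the 50-base windows of its transcript 17.4% also occurred in another gene, among them its neighbour AKR1B15, and 2.01% of 100-base windows did.

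AKR1C2 (chromosome 10, 4987775 to 5018000, minus strand), which inactivates dihydrotestosterone, fell next in size. The shControl samples were at 843, 732 and 866 CPM and the shIFITM3 samples at 425, 443 and 438 CPM. The lowest control sample was the deeply sequenced replicate 2, and it still lay far above every knockdown sample. Group means were 814 ± 71.3 CPM and 435 ± 8.97 CPM with SD over 3 samples, and the log2 fold change was -0.90 (SE 0.0424, edgeR adjusted p = 8.58e-15). AKR1C3 (chromosome 10, 5048781 to 5107686, plus strand), a prostaglandin F synthase and 17-beta-hydroxysteroid dehydrogenase, was at 692, 680 and 728 CPM in shControl and at 489, 522 and 524 CPM in shIFITM3. Its log2 fold change was -0.45 (SE 0.0324, edgeR adjusted p = 2.29e-11). AKR1C1 (chromosome 10, 4963415 to 4983283, plus strand), which inactivates progesterone, was at 546, 489 and 558 CPM in shControl and at 427, 429 and 423 CPM in shIFITM3. Its log2 fold change was -0.32 (SE 0.0375, edgeR adjusted p = 1.37e-07). AKR1C1 thus fell 19.7% where AKR1C2, with nearly the same coding sequence, fell 46.5%.

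Because reads may pass between these 3 genes, they were also added up. Their sum was 2045 ± 129 CPM in shControl and 1374 ± 28.2 CPM in shIFITM3 (SD, n = 3 each), and its log2 fold change was -0.57 with an SE of 0.0328 (edgeR adjusted p = 3.34e-13). The sum is free only of exchange among these 3 genes. It does not cover reads shared with other genes such as AKR1C4, or reads left uncounted because they fit several genes. The makeup of the sum is given as a description. AKR1C2 gave 40.5, 38.5 and 40.2% of the summed counts in shControl replicates 1, 2 and 3, and 31.7, 31.8 and 31.6% in the shIFITM3 replicates. The ratio of AKR1C2 to AKR1C1 counts was 1.53 ± 0.0296 in shControl and 1.02 ± 0.0208 in shIFITM3 (SD, n = 3 each). The groups did not overlap in either quantity. An exact two-sided permutation test gave p = 0.1 for each of the 4 quantities compared (3 shares and this ratio), and 0.1 after Benjamini-Hochberg adjustment, which is the smallest value that 3 against 3 samples allow, so this test could not pass 0.05. The part that reads shared by AKR1C1 and AKR1C2 have in this ratio was not tested.

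**Figure D2:**
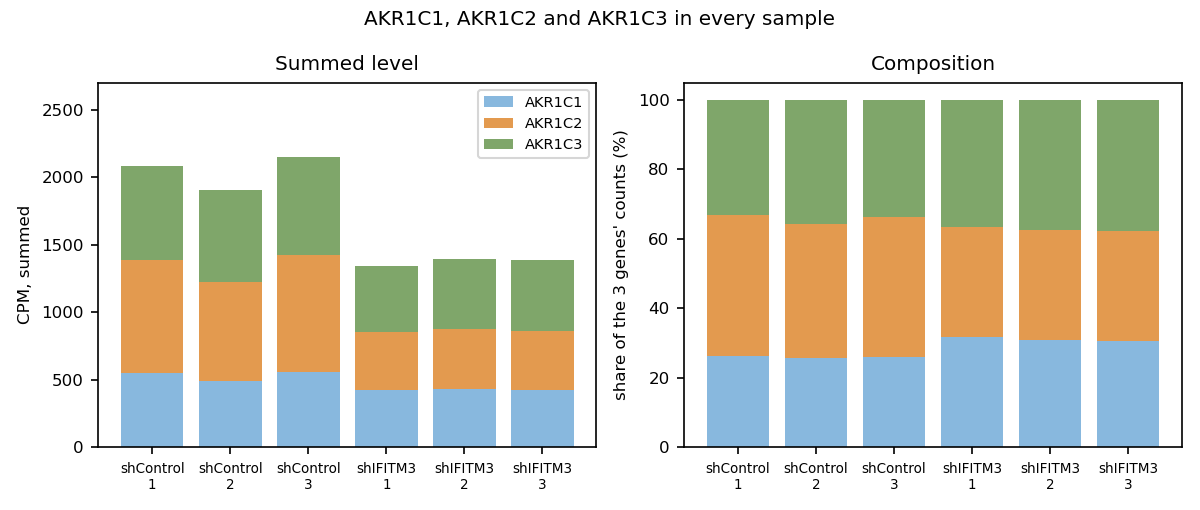
Summed CPM of AKR1C1, AKR1C2 and AKR1C3 in each sample (left, stacked bars) and the share of each gene in the counts of the 3 (right, percent). The sum is lower in every shIFITM3 sample, and the AKR1C2 share is 38.5 to 40.5% in the controls and 31.6 to 31.8% in the knockdown.

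In the aldo-keto reductase family 9 of 13 listed genes were tested, of which 7 fell and 0 rose, where 28.4% of all tested genes fell and 27.7% rose. The median log2 fold change was -0.45. The count includes the 4 members above, and of the 5 other tested genes 3 fell (AKR1B1, AKR1A1 and AKR1B15) and 0 rose. AKR1B1 (aldose reductase, which turns glucose into sorbitol) was at 838, 766 and 840 CPM in shControl and at 589, 648 and 623 CPM in shIFITM3. Its log2 fold change was -0.39 (SE 0.0362, edgeR adjusted p = 2e-09). AKR1A1, which reduces a broad range of aldehydes, fell from 46.4 ± 3.20 to 37.4 ± 1.13 CPM (log2 fold change -0.31, edgeR adjusted p = 9.16e-05). AKR1B15 was hardly expressed, at 1.05 ± 0.475 and 0.333 ± 0.130 CPM (-1.57, SE 0.453, edgeR adjusted p = 0.00498), and it shares sequence with AKR1B10, so its value is uncertain. AKR7A2, which reduces succinic semialdehyde and aflatoxin dialdehyde, was at 45.8 ± 2.14 and 44.9 ± 2.28 CPM (-0.02, 95% interval -0.14 to 0.09, edgeR adjusted p = 0.739). AKR1C4, a liver enzyme, was at 0.519 ± 0.0881 and 0.306 ± 0.0562 CPM and did not pass (edgeR adjusted p = 0.189). AKR1D1, AKR1E2, AKR7A3 and AKR7L had at most 20 counts in any sample and were not tested.

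**Figure D3:**
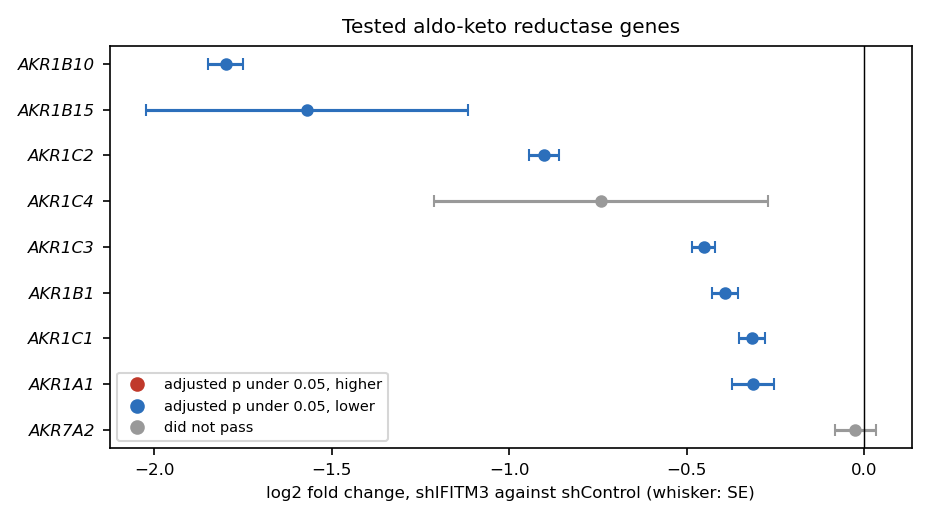
Log2 fold changes with SE of the 9 tested aldo-keto reductase genes, blue where lower at an adjusted p under 0.05 and grey where the test was not passed. AKR1B10 has the lowest value at -1.80, AKR7A2 sits at -0.02, and the weakly expressed AKR1B15 and AKR1C4 have wide errors.

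NQO1 (chromosome 16, 69709401 to 69726560, minus strand) encodes the quinone reductase often used to read out NRF2 activity. It was at 639, 645 and 654 CPM in shControl and at 575, 543 and 578 CPM in shIFITM3, which is 12.5% lower. Its log2 fold change was -0.19 (SE 0.0297, edgeR adjusted p = 6.33e-06). In the wider list of quinone, carbonyl and aldehyde metabolism 12 of 16 tested genes fell and 1 rose, against 28.4% and 27.7% of all tested genes, with a median of -0.18. NQO1 is one of the 12. DHRS3, a retinal reductase, stood at 36.1 ± 3.76 CPM in shControl and fell to 11.8 ± 1.77 CPM, a log2 difference of -1.63 (edgeR adjusted p = 5.52e-13). EPHX1, an epoxide hydrolase, fell by 0.42 and the aldehyde dehydrogenase gene ALDH3A1 by 0.31 on the log2 scale. ALDH1A3, which makes retinoic acid, was the 1 rise, from 1074 ± 27.1 to 1630 ± 10.2 CPM (0.60, SE 0.0255, edgeR adjusted p = 1.11e-15).

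GCLM (chromosome 1, 93885199 to 93909430, minus strand) encodes the modifier subunit of glutamate-cysteine ligase, the first enzyme of glutathione synthesis. Its level was 377, 374 and 379 CPM in shControl and 291, 275 and 295 CPM in shIFITM3. The controls lay close together, and every knockdown sample was below them. The log2 fold change was -0.39 (SE 0.0326, edgeR adjusted p = 2.98e-10). Of the 16 tested genes of glutathione synthesis and recycling, GCLM among them, 7 fell and 3 rose (62.5% called, against 56.1% of all tested genes), with a median of -0.19. The catalytic subunit gene GCLC, chosen after its values were seen, fell from 190 ± 4.89 to 159 ± 2.71 CPM (-0.26). GPX2, a glutathione peroxidase of epithelia, fell from 116 ± 3.47 to 75.1 ± 5.14 CPM (-0.63).

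The cystine transporter that feeds glutathione synthesis was split between its subunit genes. SLC7A11, the transport subunit, was at 305, 282 and 268 CPM in shControl and at 601, 544 and 587 CPM in shIFITM3 (log2 fold change 1.02, SE 0.0407, edgeR adjusted p = 3.47e-16). SLC3A2, the heavy chain that other amino acid transporters also use, fell from 705 ± 5.16 to 468 ± 10.6 CPM (-0.59). GLRX, a glutaredoxin that removes glutathione from proteins, rose from 7.32 ± 0.855 to 23.9 ± 1.22 CPM (1.72). Among glutathione S-transferases, 4 of 11 tested genes fell and 3 rose, a called share of 63.6% that is near the 56.1% of all tested genes, with GSTM4 (-0.78) and GSTM3 (-0.48) lower and MGST3 (0.53) and GSTK1 (0.26) higher.

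TXNRD1 (chromosome 12, 104215779 to 104350307, plus strand), the cytosolic thioredoxin reductase, went the other way. It was at 2153, 2086 and 2151 CPM in shControl and at 2915, 2932 and 2985 CPM in shIFITM3. All knockdown samples lay above the highest control. The log2 fold change was 0.47 (SE 0.0230, edgeR adjusted p = 2.06e-14), which is 38.2% higher. SRXN1 (chromosome 20, 646615 to 653200, minus strand), which repairs over-oxidised peroxiredoxins, was at 421, 413 and 417 CPM in shControl and at 436, 440 and 447 CPM in shIFITM3. The difference of 5.79% passed, at 0.08 on the log2 scale (SE 0.0289, edgeR adjusted p = 0.0196). This was lost under upper-quartile scaling (edgeR adjusted p = 0.0711). It was also lost when shControl replicate 2, shControl replicate 3 or shIFITM3 replicate 3 was left out (edgeR adjusted p = 0.063, 0.0634 and 0.0833). In GENCODE, SRXN1 shares 84.8% of its transcript's 50-base windows with the readthrough gene AL121758.1. GENCODE lists 1 gene whose exons overlap those of SRXN1, and the count table holds no gene of that name.

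Of 13 tested genes of the thioredoxin and peroxiredoxin system 6 fell and 3 rose (69.2% called, against 56.1% of all tested genes), SRXN1 and TXNRD1 being 2 of the rises, and the median was -0.13. PRDX3, the mitochondrial peroxiredoxin, fell from 151 ± 2.16 to 114 ± 6.54 CPM (-0.41, edgeR adjusted p = 1.52e-08), and PRDX6 from 347 ± 7.21 to 295 ± 5.15 CPM (-0.23). TXNIP, which binds and inhibits thioredoxin, was the remaining rise (0.28). Of the 4 genes of superoxide and peroxide removal 1 was called (25%, against 56.1% of all tested genes). This was SOD2, the mitochondrial superoxide dismutase, which rose from 44.3 ± 0.420 to 59.7 ± 2.72 CPM (0.43). SOD1 (0.08), SOD3 (0.27) and CAT (-0.06) did not pass (edgeR adjusted p = 0.0737, 0.183 and 0.411). SOD1 passed with total-count scaling, with the strict filter and without shIFITM3 replicate 2.

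HMOX1 (chromosome 22, 35381096 to 35394207, plus strand), the inducible enzyme that opens heme to biliverdin, iron and carbon monoxide, rose from a low level. It was at 13.0, 12.2 and 13.5 CPM in shControl (275, 936 and 371 counts) and at 20.7, 21.8 and 22.4 CPM in shIFITM3 (456, 502 and 536 counts). Every knockdown sample lay above every control. The log2 fold change was 0.76 (SE 0.0857, edgeR adjusted p = 6.17e-08), or 1.68 times the control level. In the list of heme breakdown and ferritin genes, HMOX1 included, 4 of 10 rose and 3 fell (70% called, against 56.1% of all tested genes), with a median of -0.01. FTH1, the ferritin heavy chain that stores iron, rose from 2724 ± 77.4 to 3159 ± 73.3 CPM (0.21). FTL, the light chain and likewise a known NRF2 target, was at 2094 ± 34.5 and 2093 ± 60.3 CPM and did not pass (edgeR adjusted p = 0.969), and was chosen after its values were seen. BLVRB, a biliverdin reductase, fell by 0.39 and the heme transporter gene SLC48A1 by 0.51 on the log2 scale.

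Compared per kilobase of transcript, TXNRD1 had the highest level of the 10 members and HMOX1 the lowest in both groups. In shControl, TXNRD1 stood at 542 ± 9.67 CPM per kb, then AKR1C3 at 387 ± 13.7, NQO1 at 222 ± 2.54, AKR1C2 at 217 ± 18.98, SRXN1 at 154 ± 1.49, AKR1B10 at 142 ± 4.48, AKR1C1 at 79.2 ± 5.47, GCLM at 77.6 ± 0.449, NFE2L2 at 65.2 ± 1.39 and HMOX1 at 7.07 ± 0.380 CPM per kb (SD, n = 3 each). NQO1 overlapped AKR1C2, and AKR1C1 overlapped GCLM, in the range over samples. In shIFITM3, AKR1B10 stood at 40.8 ± 3.62 CPM per kb, below NFE2L2 (61.4 ± 1.80) and GCLM (59.04 ± 2.18), which overlapped each other. Lengths are those of 1 principal GENCODE transcript per gene, which for AKR1C1 is 6705 bases and for AKR1C2 is 3756 bases, so the order depends on which transcripts these cells make.

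Of 14 tested partners and regulators of NRF2 8 rose and 2 fell, where 27.7% of all tested genes rose and 28.4% fell. The called share was 71.4%, against 56.1% of all tested genes, and the median log2 fold change was 0.39. SQSTM1, which encodes p62, a cargo receptor that draws KEAP1 into autophagy and is itself a known NRF2 target, was at 773, 775 and 809 CPM in shControl and at 1492, 1468 and 1528 CPM in shIFITM3. Its log2 fold change was 0.93 (SE 0.0271, edgeR adjusted p = 8.63e-19). All 3 small MAF genes, whose products pair with NRF2 and with BACH1, rose. MAFF went from 63.1 ± 0.974 to 138 ± 5.50 CPM (1.13), MAFK from 43.02 ± 2.09 to 81.5 ± 0.649 CPM (0.93) and MAFG from 120 ± 1.83 to 166 ± 3.61 CPM (0.47).

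BACH1, the repressor that competes with NRF2 for small MAF partners and holds HMOX1 down, was at 37.0, 37.1 and 36.4 CPM in shControl and at 59.3, 57.5 and 65.7 CPM in shIFITM3 (0.72, SE 0.0563, edgeR adjusted p = 9.82e-11). Its relative BACH2 rose to 5.46 ± 0.334 CPM, with control samples at 2.36, 2.09 and 2.15 CPM (log2 fold change 1.33). KEAP1 was at 174, 169 and 176 CPM in shControl and at 168, 174 and 164 CPM in shIFITM3, with overlapping ranges. Its log2 fold change was -0.04 (95% interval -0.11 to 0.04, edgeR adjusted p = 0.428). The ligase genes that work with KEAP1 fell, CUL3 by 0.13 and RBX1 by 0.32 on the log2 scale (edgeR adjusted p = 0.00106 and 2.79e-05). BTRC (0.31), the adaptor of a second NRF2 ligase, and NFE2L3 (0.52), a relative of NRF2, rose. GSK3B (0.01), DPP3 (0.02) and NFE2L1 (0.00) did not pass (edgeR adjusted p = 0.816, 0.671 and 0.916), and NFE2 was too low to be tested.

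**Figure D4:**
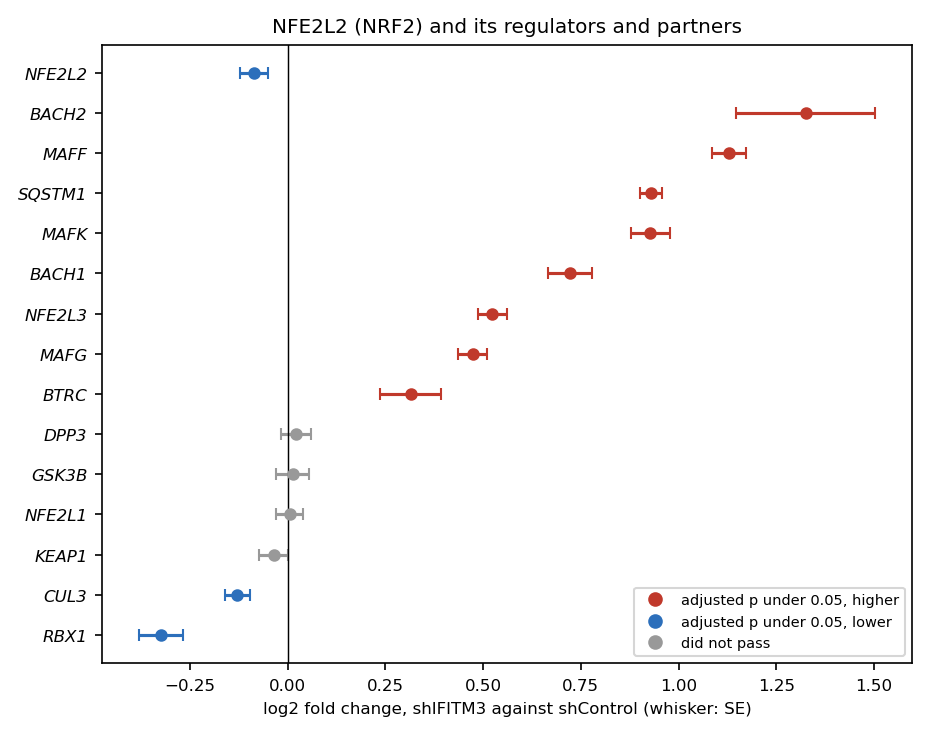
Log2 fold changes with SE of NFE2L2 and 14 tested regulators and partners, red where higher, blue where lower and grey where the test was not passed. NFE2L2 lies at -0.09 and KEAP1 at -0.04, while SQSTM1, BACH1, BACH2 and the small MAF genes lie between 0.47 and 1.33.

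Of 29 other tested genes known as NRF2 targets 15 fell and 5 rose, where 28.4% and 27.7% of all tested genes did, and the median was -0.13. Of the 29, 24 also stand in one of the other lists, so the counts are not separate evidence. SLC7A11 and SQSTM1 had the largest rises among them, and GPX2 and EPHX1 the largest falls. Among 11 genes that supply NADPH 5 fell and 3 rose (72.7% called, against 56.1% of all tested genes), with a median of -0.04. The falls with the smallest p were in folate and mitochondrial enzymes, MTHFD1 (-0.55), IDH2 (-0.40), NNT (-0.36) and MTHFD2 (-0.26). TKT, the transketolase of the pentose phosphate pathway, was chosen after its values were seen and did not pass (0.03, edgeR adjusted p = 0.44). Among 6 efflux transporters of the ABCC and ABCG families 3 fell and 1 rose (66.7% called, against 56.1% of all tested genes). ABCC4 (-0.41), ABCC1 (-0.30) and ABCC2 (-0.23), which export glutathione conjugates and other anions, fell, and ABCC5 (0.23) rose.

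**Figure D5:**
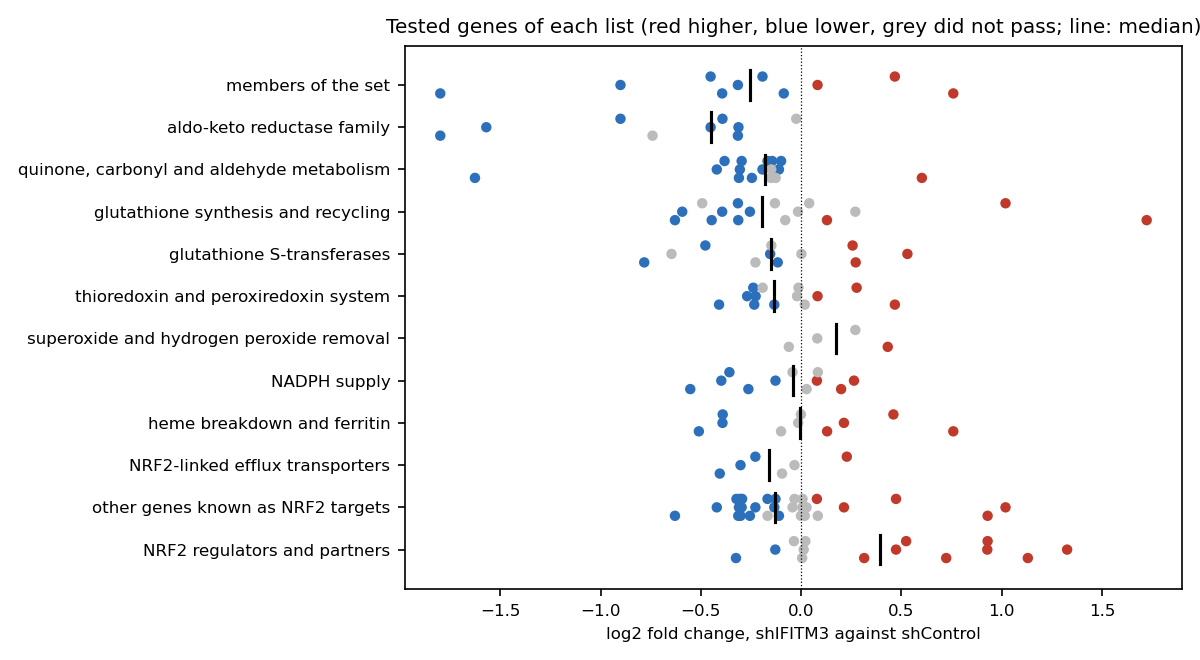
Log2 fold change of every tested gene in each list, red higher, blue lower and grey not passed, with a black line at each list's median. The aldo-keto reductases have the lowest median (-0.45) and the NRF2 regulators the highest (0.39) of the lists shown.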

How the data were processed

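One table deposited by the authors holds whole-number read counts of 26485 gene symbols in the 6 samples, not normalized. The submitters' processing notes list fastp 0.23.4, HISAT2 2.2.1, featureCounts from Subread 2.0.6 and hg38. Not given in the sources used here are the annotation, the strand setting and how reads that fit several genes were counted.

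Genes passing filterByExpr were kept (14018), libraries were TMM-scaled, and each gene was fitted on group with edgeR 4.0.16 (glmQLFit, glmQLFTest, two-sided) in R 4.3.3, adjusted by Benjamini-Hochberg over all tested genes, threshold 0.05. SE is the absolute log2 fold change over the square root of F. A sum of AKR1C1 to AKR1C3 was fitted in place of their rows. The fit was also run on data simulated from its own estimates, with far fewer changed genes than were called here. That run therefore cannot show how the fit performs when so large a share of genes differs. In the least deep library 3 counts, the limit a count of 0 allows, are 0.141 CPM, counting error only.

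Coordinates and promoters are from RefSeq (GRCh38.p14), transcripts from GENCODE release 29. The members and the gene lists were chosen with earlier results of these data known. Genes named are the members, IFITM3, all tested aldo-keto reductases and NRF2 regulators, the marker genes used as checks, and up to 4 genes of smallest p per other list. Other names are marked as chosen after their values were seen. DESeq2 1.42.0, limma-voom (limma 3.58.1), other scalings and filters, a replicate block, a thinned library, a 1.5-fold test and leaving out each sample were also run.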

Additional observations from a re-analysis of the deposited data

How the results depend on the processing

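Across 16 other settings no member changed direction. AKR1B10 and AKR1C2 passed in all 16. AKR1C1, AKR1C3, NQO1, GCLM, HMOX1 and TXNRD1 passed in 15 of 16, the exception being the test against a 1.5-fold change, which is a stricter question. SRXN1 passed in 11 of 16 and NFE2L2 in 6 of 16, and the cause was not tested. The 1.5-fold test called 1115 genes, 807 higher and 308 lower, and among the members 0 higher and 2 lower. The summed AKR1C genes, at -0.57, did not pass it (edgeR glmTreat adjusted p = 1), and their other values ran from -0.62 to -0.54. Leaving out each sample gave 7124 to 7553 called genes, against 7870 with all. With the replicate number as a block (replicate block) 7870 genes passed, 3865 higher and 4005 lower. Deviations of same-numbered samples from their group means had r of 0.0157, 0.0330 and 0.00634 across genes, so the numbers were not taken to pair samples, and not every sample correlated best with its own number. Depth limits AKR1B15, AKR1C4 and the genes too low to be tested.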

Other observations

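The list of other enzymes that handle steroids, prostaglandins and retinoids, substrates that the AKR1B and AKR1C enzymes share, held 18 tested genes. Of these 7 rose and 5 fell (66.7% called, against 56.1% of all tested genes), with a median log2 fold change of 0.11. HSD17B7, which acts in estradiol and in cholesterol synthesis, was at 11.4 ± 1.24 CPM in shControl and rose to 49.4 ± 0.821 CPM in shIFITM3, a log2 difference of 2.10 with an SE of 0.0738 (edgeR adjusted p = 3.02e-17). RDH11, a retinal reductase, rose from 80.4 ± 0.968 to 159 ± 3.29 CPM (0.98), and HSD17B10, a mitochondrial dehydrogenase of fatty acids and steroids, from 58.3 ± 1.86 to 115 ± 3.27 CPM (0.99). PTGES, which makes prostaglandin E2, fell from 207 ± 1.82 to 154 ± 4.11 CPM (-0.43).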
